A study of Mus musculus with 10 samples.

Results

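Retinoic acid is made from vitamin A, binds nuclear receptors and is broken down again by dedicated enzymes. The 10 genes described here cover those steps in mouse hepatic stellate cells, the perisinusoidal liver cells that store vitamin A. They were chosen by name for their roles: the retinoic acid receptors Rara, Rarb and Rarg, the retinoid X receptors Rxra and Rxrb, the synthesis enzymes Aldh1a1 and Aldh1a2, the clearance enzymes Cyp26a1 and Cyp26b1 and the carrier Crabp2. They are 10 of 36047 annotated genes in the deposited files, and the rule that lists them uses their names and no measured value, although earlier results of these data were known when they were chosen. The Areg group comprised 5 libraries from quiescent stellate cells of C57BL/6 male mice that spent 5 h in culture and then 4 h in starving medium containing 500 ng/mL recombinant mouse Areg. Areg is amphiregulin, a growth factor that signals through the EGF receptor. The control group comprised 5 libraries of the same kind of cells, with the same culture times, given the control treatment. Whether each library had its own animal or culture is not stated in the labels, so p-values reflect the spread among these 5 and 5 libraries and that spread may be technical.

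Retinol is oxidised reversibly to retinaldehyde, and retinaldehyde dehydrogenases of the Aldh1a family oxidise that to retinoic acid. Retinoic acid binds RAR proteins, which sit on DNA as heterodimers with RXR proteins, and Cyp26 enzymes hydroxylate it for removal. Stellate cells hold most of the body's retinyl esters and lose them when they turn into matrix-producing myofibroblasts.

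RAR-RXR heterodimers bind direct repeats of a short half-site, and Rarb and Cyp26a1 are the textbook genes that carry such a repeat at their start. These sequences are shown because a search of the members' promoters found the repeat in these genes, so that their transcript levels can be read beside it. RefSeq promoter windows (GRCm38.p6, 250 bases before to 50 after a gene's start) matched 9 of the 10 members with 16 windows. They were searched on both strands for the consensus half-site AGGTCA and for the accepted form AGTTCA. The form GGGTCA was also allowed, as was the last of the 4 forms, GGTTCA. Any pair of these with a spacer of 1, 2 or 5 bases counted as a repeat (DR1, DR2 and DR5). A repeat was found in 2 of the 16 windows, both times a DR5, and a DR5 was present in 0.0974% of all 32851 windows. These were the Rarb and Cyp26a1 windows, where such a repeat was already known, so the count was not tested against that share. DR1 and DR2 repeats were present in 0.222% and 0.268% of all windows and in none of the members' windows. The repeats are printed with 6 flanking bases on each side, 5′ to 3′, on the minus strand of both chromosomes, with the half-sites in capitals.
Rarb, chr14:16575507-16575535, minus strand: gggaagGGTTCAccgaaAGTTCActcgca
Cyp26a1, chr19:37697770-37697798, minus strand: caaattAGTTCAcccaaAGTTCAtcttta

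The Rarb repeat lay 53 to 37 bases before the RefSeq start, in the orientation of the gene, and 14 to 30 bases after the GENCODE start of transcript Rarb-201. The Cyp26a1 repeat lay 32 to 16 bases before its RefSeq start, in the opposite orientation, and 22 to 6 bases before the GENCODE start. The repeats had the same base at 15 of 17 positions, and differed by G1A and G9C, written as the Rarb base, the position counted from 1 at the 5′ end of the repeat, and the Cyp26a1 base. The Cyp26a1 stretch just upstream of the GENCODE start is shown on the gene's own plus strand, with the same half-sites, now read in reverse complement, in capitals.
Cyp26a1, chr19:37697678-37697797, plus strand: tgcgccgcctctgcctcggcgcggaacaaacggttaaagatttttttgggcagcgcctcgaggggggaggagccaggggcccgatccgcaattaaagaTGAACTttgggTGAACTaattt

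A match describes letters only, and a window without a match says nothing about binding. The only Cyp26b1 window ran from 84593761 to 84594060 on chromosome 6. It does not cover 84588638 and 84587680, the starts of the forms that held almost all Cyp26b1 counts. Crabp2 had no window.

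With Areg, 4 of the 5 receptor genes (Rxra, Rarg, Rara and Rxrb) and the clearance gene Cyp26b1 were lower, by 14.4% to 22.9%. The genes with a DR5 repeat in a searched window, Rarb and Cyp26a1, did not pass the test, nor did Aldh1a1, Aldh1a2 and Crabp2. All 10 members were tested, and 5 were lower, 0 higher and 5 not past an edgeR adjusted p of 0.05, with 7 negative and 3 positive log2 fold changes and a median of -0.16. An unadjusted edgeR p under 0.05 was met by 4200 of the 13362 genes tested. Of the members, Rxra, Rarg, Rara, Rxrb and Cyp26b1 met it and were lower, and Aldh1a2 met it and was higher. DESeq2 called Aldh1a2 (adjusted p = 0.0303). Over all 13362 genes tested, 16.7% differed, 8.34% higher and 8.32% lower, with a median log2 fold change of -0.01. The falls of Rara and Rxrb were smaller without controls 3 and 4 and near 0 with the length and GC trend removed, as given with those genes.

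Libraries held 10125184 to 20057962 estimated counts. Controls 3 and 4 were the shallowest, at 10125184 and 10950603, and stood apart on the first principal component of log2 CPM, at 46.6 and 28.6 against -16.5 to 0.46 in the other 8 libraries. Without both, 2178 genes differed, against 2226 with them. Of the genes called, 50.04% were higher with Areg, but this share was 61.0% with a trend of each library in transcript length and GC content removed, 58.3% with no filter on low counts and 37.6% on the log2(TPM + 1) scale. The labels name no batch, and a part of depth or RNA quality in the results below was not tested.

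**Figure D1:**
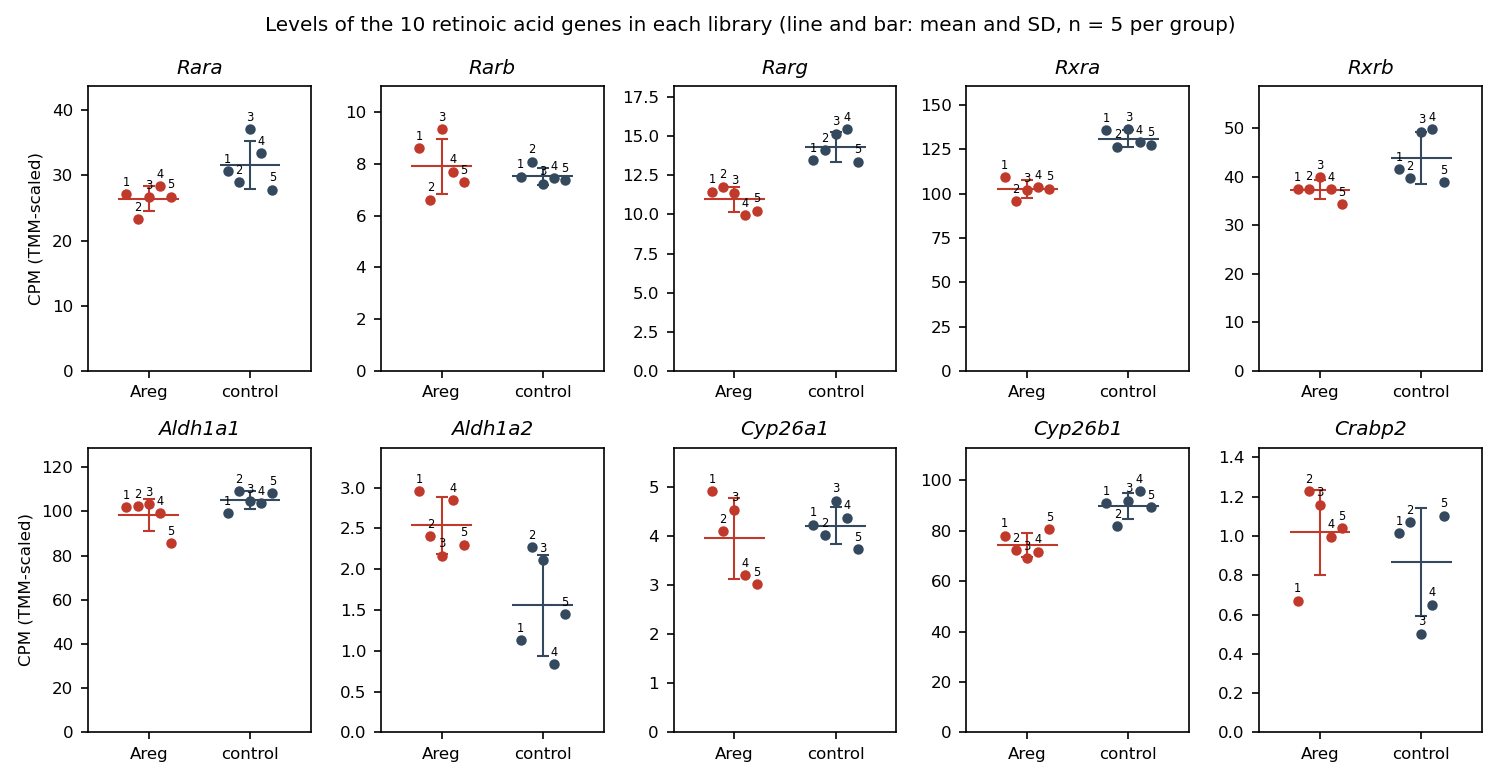
Level of each of the 10 genes in every library, in CPM (counts scaled to library size with TMM factors, vertical axes), with the 5 Areg libraries left of the 5 control libraries; points are libraries and bars are the mean with its SD. The Areg points lie wholly below the control points for Rxra, Rarg and Cyp26b1, and the groups overlap for the other genes.

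Levels of different genes were compared in TPM (a level scaled for transcript length and library total), as a description. Aldh1a1 was the most abundant member in every library, at 87.0 ± 5.65 TPM with Areg and 95.9 ± 4.83 TPM in controls (mean ± SD, n = 5 in each group, here and below). Rxra came next, at 40.3 ± 4.32 TPM with Areg and 48.5 ± 4.14 TPM in controls. Rxrb (32.9 TPM with Areg, 39.7 TPM in controls) and Cyp26b1 (27.9 and 34.4 TPM) followed, and changed places in control 5. Rara averaged 17.3 TPM with Areg and 20.7 TPM in controls, ahead of Rarg. The neighbours Rarb and Cyp26a1 lay between 2.96 and 5.81 TPM and changed places between libraries, as did the lowest members Crabp2 and Aldh1a2, between 0.631 and 2.56 TPM. Within each pathway step the same gene was highest in every library: Aldh1a1 above Aldh1a2, Cyp26b1 above Cyp26a1, Rxra above Rxrb, and Rara above the other RAR genes.

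Rxra, which encodes the RXR partner most abundant in liver, was the receptor gene with the smallest p. It had 109, 95.7, 102, 104 and 103 CPM in Areg libraries 1 to 5, against 136, 127, 136, 129 and 128 CPM in controls 1 to 5. Every Areg library lay below every control. Rxra (chromosome 2, 27676440 to 27762957, plus strand, GRCm38, as for all coordinates below) fell by 21.7%, or -0.35 ± 0.05 on the log2 scale (SE; edgeR adjusted p = 0.000169). Of the members, 3 had groups that did not overlap in CPM (Rxra, Rarg and Cyp26b1, all with Areg below), a pattern found in 7.06% of all genes tested with Areg below, in 7.64% with Areg above and in 14.7% in all. In TPM the Rxra groups overlapped, and the fall did not pass with an effective length offset (-0.24, edgeR adjusted p = 0.0799). It passed without controls 3 and 4 (-0.34) and, smaller by more than 1.5 times, with the length and GC trend removed (-0.18). The call of Rxra was lost under 5 of 25 alternatives, among them the effective length offset and both TPM scales. Its adjusted p was 7.96e-11 to 0.0799 over all of them.

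The overlap of Rxra in TPM sat with a short form. Rxra-201, the full-length form of 4905 bases, held 94.4% to 99.9% of the gene's estimated counts and was the 1 member transcript called of 23 tested and 53 listed, where 0.775% of 36269 tested transcripts were called, 0.474% higher and 0.301% lower. Rxra-201 averaged 101 ± 4.70 CPM with Areg and 130 ± 5.08 CPM in controls (log2 fold change -0.36, edgeR adjusted p = 0.0117). In TPM it had 36.1, 31.4, 34.8, 32.6 and 33.9 with Areg, against 49.6, 43.8, 44.1, 42.3 and 42.3 in controls. These groups did not overlap. Rxra-204, a form of 628 bases, had 3.58, 5.45, 0, 12.3 and 6.23 TPM with Areg, against 2.39, 0, 9.39, 3.11 and 1.16 TPM in controls, so its assigned reads varied from library to library within both groups.

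Rarg encodes RARγ, a receptor studied mainly in skin and cartilage. It had 11.4, 11.8, 11.4, 9.97 and 10.2 CPM with Areg, against 13.5, 14.1, 15.2, 15.4 and 13.4 CPM in controls. The groups did not overlap. Rarg (chromosome 15, 102234938 to 102257517, minus strand) fell by 22.9%, or -0.38 ± 0.08 on the log2 scale (SE; edgeR adjusted p = 0.00606), and was called lower without controls 3 and 4 (-0.31) and with the length and GC trend removed (-0.24), but not with both changes together (-0.24, edgeR adjusted p = 0.0700). On the log2(TPM + 1) scale it did not pass with limma-trend (-0.36, adjusted p = 0.376). Over its alternatives its adjusted p was 0.00132 to 0.420.

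Rarg in TPM was moved by a transcript with almost no reads. Rarg-206, of 111 bases, held 1 estimated count in Areg 1, Areg 2, control 1 and control 4 and 0 in the other 6 libraries. That count was worth 6.52, 6.14, 6.96 and 9.81 TPM, so the whole gene ranged from 6.81 to 19.8 TPM. Without transcripts under 500 bases, a choice made after the data had been seen, Rarg had 7.99, 6.84, 6.58, 5.76 and 5.77 TPM with Areg, against 8.58, 8.39, 9.53, 8.78 and 8.13 TPM in controls. The groups did not overlap on that scale, and the call held there by limma-trend on log2(TPM + 1) (-0.36, adjusted p = 0.0414). Most counts of the gene went to Rarg-201 (54.5% to 87.2%) and Rarg-202 (10.3% to 36.2%), which have different annotated starts, and neither passed the transcript test.

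Rara, which encodes the widely expressed RARα, had 27.1, 23.3, 26.6, 28.3 and 26.7 CPM with Areg, against 30.7, 28.9, 37.1, 33.5 and 27.8 CPM in controls. Control 5 lay among the Areg libraries, and controls 3 and 4 were the highest. Rara (chromosome 11, 98927818 to 98974942, plus strand) fell by 16.1%, or -0.25 ± 0.08 on the log2 scale (SE; edgeR adjusted p = 0.0376). The call was lost under 15 of 25 alternatives, among them leaving out Areg 1, 2, 3 or 5 or control 3 or 4, with adjusted p from 0.0202 to 0.813 over all of them. Without controls 3 and 4 the log2 fold change was -0.14, and with the length and GC trend removed -0.06. Its main forms were Rara-204 (48.0% to 61.2% of counts), Rara-207 (8.39% to 38.1%) and Rara-202 (6.03% to 32.5%), none of which passed.

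Rxrb, which encodes RXRβ, had 37.4, 37.5, 39.9, 37.5 and 34.3 CPM with Areg, against 41.6, 39.6, 49.3, 49.7 and 38.8 CPM in controls. The highest Areg library exceeded controls 2 and 5, and controls 3 and 4 were again the highest. Rxrb (chromosome 17, 34031812 to 34038399, plus strand) fell by 14.4%, or -0.22 ± 0.07 on the log2 scale (SE; edgeR adjusted p = 0.0483). Its call was lost under 14 alternatives, among them leaving out Areg 1, 2, 4 or 5 or control 3 or 4. Without controls 3 and 4 the log2 fold change was -0.10, and with the length and GC trend removed -0.03. Its forms Rxrb-201 (27.2% to 47.2% of counts) and Rxrb-202 (20.3% to 49.6%) did not pass. With the trend removed and those controls left out, the sign of the gene turned, at 0.0013, and the adjusted p ranged from 0.0252 to 0.992 over its alternatives.

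Rarb encodes RARβ, which retinoic acid induces through the repeat printed above. It had 8.60, 6.61, 9.33, 7.69 and 7.28 CPM with Areg, against 7.50, 8.09, 7.23, 7.44 and 7.38 CPM in controls. The controls lay inside the range of the Areg libraries. Rarb (chromosome 14, 16430839 to 16819156, minus strand) did not pass (log2 fold change 0.07, 95% interval -0.16 to 0.30, edgeR adjusted p = 0.705), and its sign turned with length-corrected values (-0.11 with an effective length offset). Rarb-201, which starts beside the repeat, held 73.0% to 100% of the gene's counts.

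**Figure D2:**
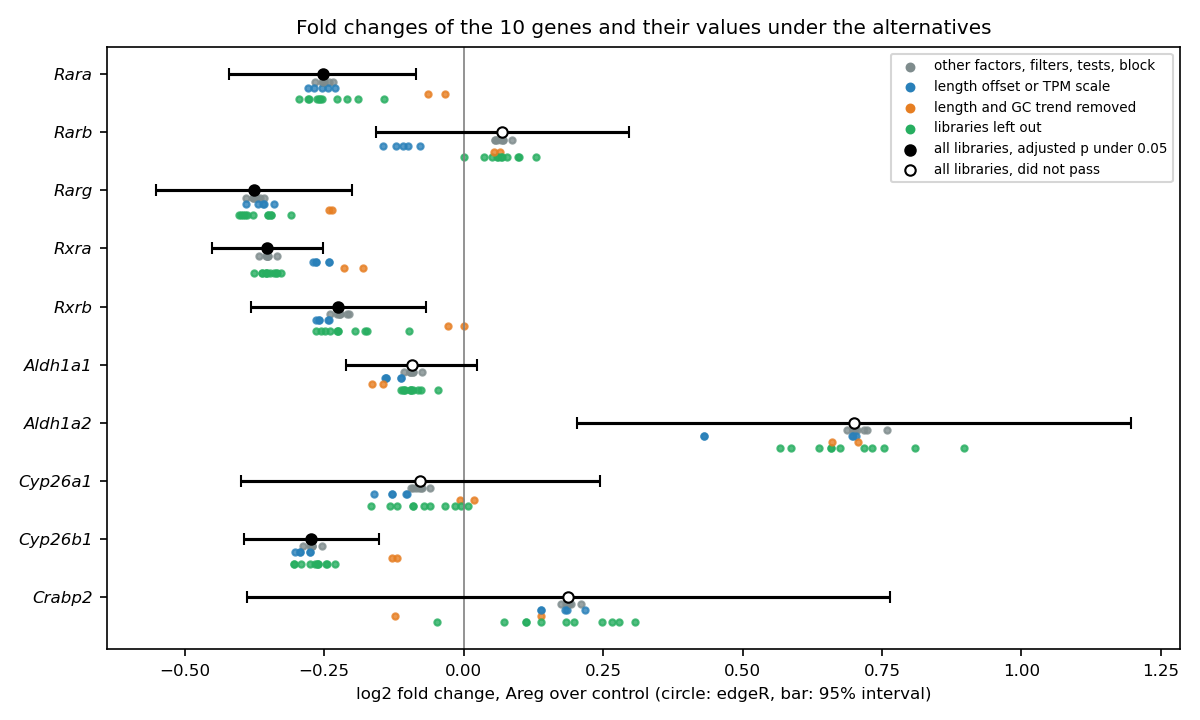
Log2 fold change of each gene, Areg over control (horizontal axis, log2 scale), with its 95% interval from edgeR's test; small coloured points are the values under the alternatives. The intervals of Rxra, Rarg, Cyp26b1, Rara and Rxrb lie below 0, the alternative values of Rara and Rxrb reach towards 0 or just past it, and Aldh1a2 has a positive change with a wide interval and positive values under all 25 alternatives.

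The synthesis enzymes did not pass. Aldh1a1 encodes the retinaldehyde dehydrogenase that dominates here, and it had 102, 102, 103, 99.1 and 85.6 CPM with Areg, against 99.1, 109, 105, 104 and 108 CPM in controls. The groups overlapped, with Areg 5 below the rest. Aldh1a1 (chromosome 19, 20492715 to 20643465, plus strand) had a log2 fold change of -0.09 (95% interval -0.21 to 0.02, edgeR adjusted p = 0.268). It passed under 1 of 25 alternatives, with the length and GC trend removed (-0.16, edgeR adjusted p = 0.0228), with adjusted p up to 0.580 under the others.

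Aldh1a1 was made of forms with distant annotated starts. Aldh1a1-201, which starts at 20601961, took 72.3%, 79.2%, 75.2%, 75.7% and 65.8% of the gene's counts with Areg, against 71.6%, 68.4%, 62.0%, 50.8% and 67.8% in controls. Aldh1a1-206, which starts at 20492715, took 23.7%, 16.8%, 21.9%, 19.1% and 28.6% with Areg, against 23.2%, 25.9%, 31.3%, 44.3% and 27.2% in controls. Control 4 had the highest share of the upstream form, and the groups overlapped. Neither form passed the transcript test, and Aldh1a1-206 had a log2 fold change of -0.57 (edgeR adjusted p = 0.211).

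Aldh1a2 encodes the retinaldehyde dehydrogenase that supplies most retinoic acid in the early embryo, and it is also known from mesothelium. It had 2.96, 2.41, 2.17, 2.85 and 2.30 CPM with Areg, against 1.13, 2.27, 2.11, 0.837 and 1.45 CPM in controls. These values rested on 53, 47, 43, 40 and 42 estimated counts with Areg, against 20, 34, 21, 9 and 21 in controls. Controls 1, 3, 4 and 5 lay below every Areg library, control 3 only just (2.11 CPM against 2.17 CPM in Areg 3). Control 2 lay among the lower Areg values. Aldh1a2 (chromosome 9, 71215789 to 71296243, plus strand) had the highest fold change of the members, 1.62-fold (log2 fold change 0.70, 95% interval 0.20 to 1.20), and just missed the threshold (edgeR adjusted p = 0.0507). Its sign was positive under all 25 alternatives, and it passed under 8 of them, among them without control 2 or control 3, with adjusted p from 0.0195 to 0.112 over all of them. The mesothelial marker Msln was at 0.827 to 1.66 TPM with Areg and 0.484 to 1.06 TPM in controls. In the same order, Wt1 was at 1.10 to 2.02 and 0.957 to 2.52 TPM, and Upk3b at 0.0335 to 0.234 and 0.187 to 0.438 TPM. Gpm6a was at 0.659 to 1.17 and 0.516 to 1.55 TPM, and Upk1b at 0 to 0.261 and 0 to 0.399 TPM. The groups overlapped for each of these markers, and the part of mesothelial cells in the Aldh1a2 values was not tested.

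The clearance enzyme Cyp26b1 was lower with Areg, and Cyp26a1 was not called. Cyp26b1 had 78.1, 72.2, 69.0, 71.7 and 80.7 CPM with Areg, against 90.9, 81.8, 91.9, 95.7 and 89.2 CPM in controls. The groups did not overlap, with control 2 closest to the Areg libraries. Cyp26b1 (chromosome 6, 84571414 to 84593908, minus strand) fell by 17.3%, or -0.27 ± 0.06 on the log2 scale (SE; edgeR adjusted p = 0.00430). In TPM it averaged 27.9 ± 1.80 with Areg and 34.4 ± 2.06 in controls, and it was the 1 member that also passed with an effective length offset and on both TPM scales. Without overlap in TPM were 2 members, Rara and Cyp26b1, both with Areg below, and 9.27% of all genes, 5.78% with Areg below. The call was lost under 2 alternatives, with the length and GC trend removed (-0.13, edgeR adjusted p = 0.0871) and with controls 3 and 4 also left out (-0.12), and its adjusted p was 0.000189 to 0.146 over all 25.

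Almost all Cyp26b1 counts went to forms that start inside the longer annotated gene. Cyp26b1-204, which starts at 84588638, held 67.0% to 71.3% and Cyp26b1-205, which starts at 84587680, held 28.4% to 32.9%. Cyp26b1-205 averaged 22.1 ± 1.72 CPM with Areg and 27.9 ± 0.822 CPM in controls. Its groups did not overlap, as for 5.2% of tested transcripts (2.19% with Areg below and 3.01% above), but it did not pass (log2 fold change -0.34, edgeR adjusted p = 0.0641).

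Cyp26a1, which retinoic acid induces through the repeat printed above, had 4.91, 4.10, 4.54, 3.20 and 3.01 CPM with Areg, against 4.23, 4.01, 4.72, 4.37 and 3.72 CPM in controls. Areg 4 and 5 were the lowest libraries and Areg 1 the highest, so the groups overlapped. Cyp26a1 (chromosome 19, 37697798 to 37701536, plus strand) had a log2 fold change of -0.08 (95% interval -0.40 to 0.24, edgeR adjusted p = 0.771). That interval includes the log2 fold changes of the receptor genes called lower, so a fall of that size could have been missed. Crabp2, which encodes a carrier that brings retinoic acid to RAR proteins, was the member with the fewest counts, 5 to 24 per library. It had 0.670, 1.23, 1.16, 0.997 and 1.04 CPM with Areg, against 1.01, 1.07, 0.502, 0.651 and 1.10 CPM in controls. Crabp2 (chromosome 3, 87948666 to 87953376, plus strand) had a log2 fold change of 0.19 with an interval of -0.39 to 0.76 (edgeR adjusted p = 0.682), so a change of the size of the receptors' could not be detected at this depth.

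**Figure D3:**
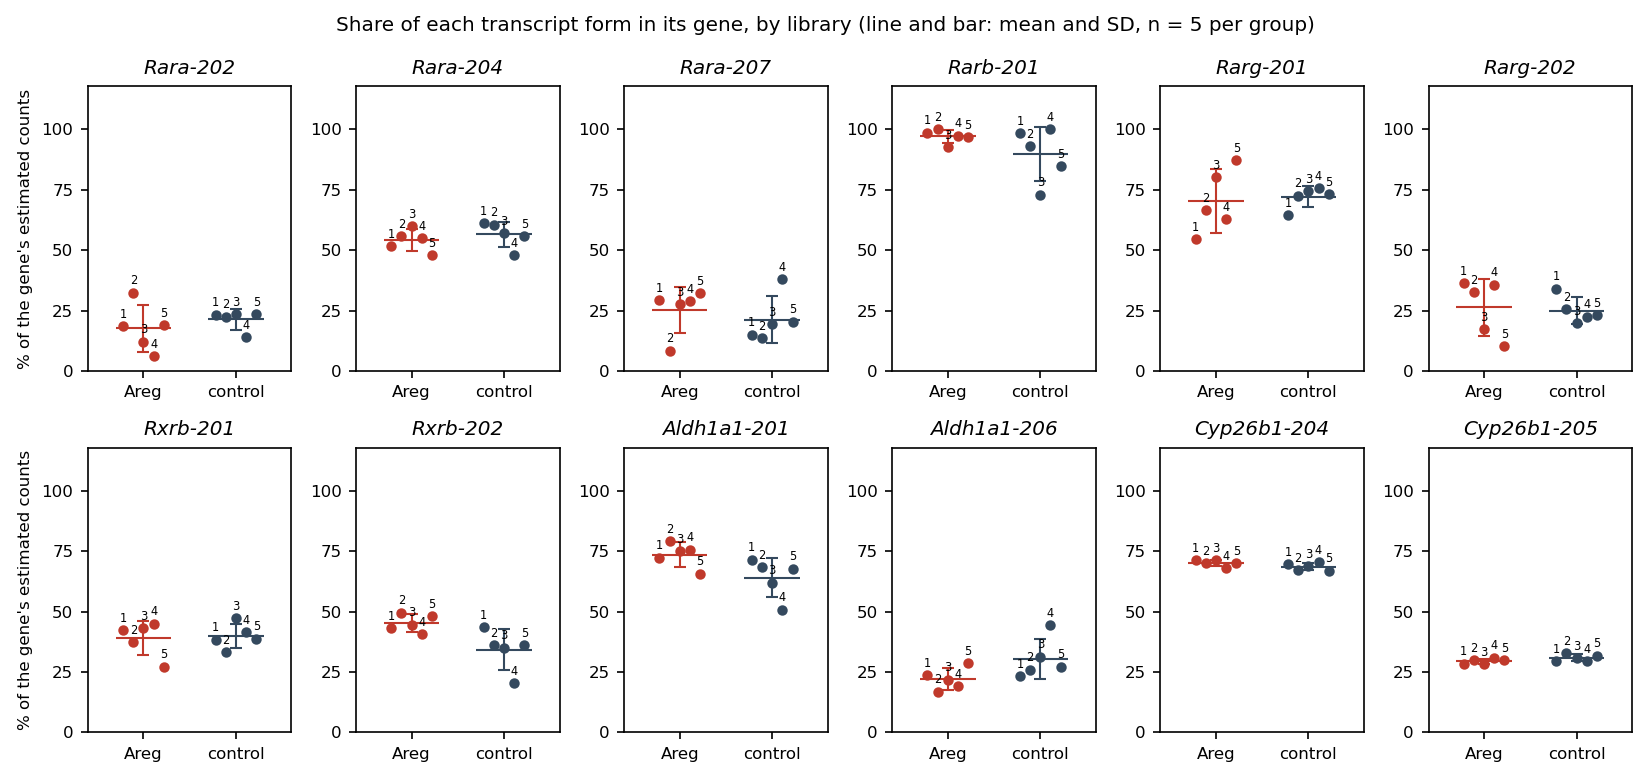
Share of each gene's estimated counts (percent, vertical axes) assigned to a transcript form in every library, for forms with a mean share of 10% to 95%, Areg libraries left of controls; line and bar are the mean and SD. Cyp26b1-204 stays between 67.0% and 71.3%, whereas the share of Aldh1a1-206 runs from 16.8% in Areg 2 to 44.3% in control 4.

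Genes next to the members in the pathway moved in both directions. Of 26 other enzymes, carriers and receptors 22 were tested, and 2 were higher, 3 lower and 17 not past the threshold, with a median log2 fold change of 0.02. The share called was 22.7%, beside 16.7% of all genes tested (8.34% higher and 8.32% lower), and no difference from that share was tested. Rdh10, which oxidises retinol to retinaldehyde, rose to 207 ± 14.4 CPM with Areg, against 176 ± 12.8 CPM in controls (log2 fold change 0.23, edgeR adjusted p = 0.0116), a call lost under 3 of 25 alternatives, all on TPM scales, with adjusted p up to 0.112. Dhrs3, which carries out the reverse reduction, fell to 61.2 ± 2.68 CPM with Areg, against 77.8 ± 7.36 CPM in controls (-0.34, edgeR adjusted p = 0.00180). These enzymes are known to bind and activate each other, and every Areg library lay above every control for Rdh10 and below every control for Dhrs3. Of all genes tested, 7.64% had every Areg library above every control and 7.06% had every Areg library below. Aldh1a3, another retinaldehyde dehydrogenase, named after its values were seen, had 18.7, 22.6, 19.8, 21.2 and 19.7 CPM with Areg, against 16.7, 17.8, 16.1, 17.1 and 16.5 CPM in controls. It rose without overlap (0.28, edgeR adjusted p = 0.0154), a call lost under 5 of 25 alternatives with adjusted p up to 0.118, among them without Areg 2. Adh7, an alcohol dehydrogenase that can oxidise retinol, fell (-0.47, edgeR adjusted p = 0.0124), a call lost under 4 of 25 alternatives with length-corrected values, with adjusted p up to 0.0549. Lrat, which esterifies retinol for storage and is also a stellate marker, fell to 32.4 ± 1.17 CPM with Areg, against 44.9 ± 4.56 CPM in controls.

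The shares called below stand beside 16.7% of all genes tested, and no difference from that share was tested. Of 16 coactivator and corepressor genes 1 was called, lower, and 15 were not past the threshold (median log2 fold change -0.05). It was Crebbp, a histone acetyltransferase gene, at -0.17 (edgeR adjusted p = 0.0489), a call lost under 17 of 25 alternatives, 7 of them with a single library left out. The coactivator genes Ncoa1 and Ncoa2 had -0.16 and -0.13 and did not pass (edgeR adjusted p = 0.116 and 0.0985). Of 13 receptors that pair with RXR 1 was called, lower, and 12 were not past the threshold (median log2 fold change -0.13). That gene was Ppard, which encodes the lipid sensor PPARδ, at 195 ± 4.39 CPM with Areg and 245 ± 25.2 CPM in controls (-0.33, edgeR adjusted p = 0.00149). Its call held under all 25 alternatives, with smaller log2 fold changes where the length and GC trend was removed (-0.13, and -0.10 with controls 3 and 4 also left out). Thra, Nr1h2 and Nr1i2 had log2 fold changes of -0.28, -0.23 and -0.46 and did not pass.

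Of 24 genes reported elsewhere to respond to retinoic acid 21 were tested, and 3 were called, all lower (Lrat, Dhrs3 and Hoxb5), and 18 were not past the threshold, with a median of -0.06. That share is near the 16.7% of all genes. Lrat and Dhrs3 are also counted in the enzyme list. Hoxb5, a homeobox gene, had -0.31 (edgeR adjusted p = 0.0471), a call lost under 18 of 25 alternatives, 7 of them with a single library left out.

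**Figure D4:**
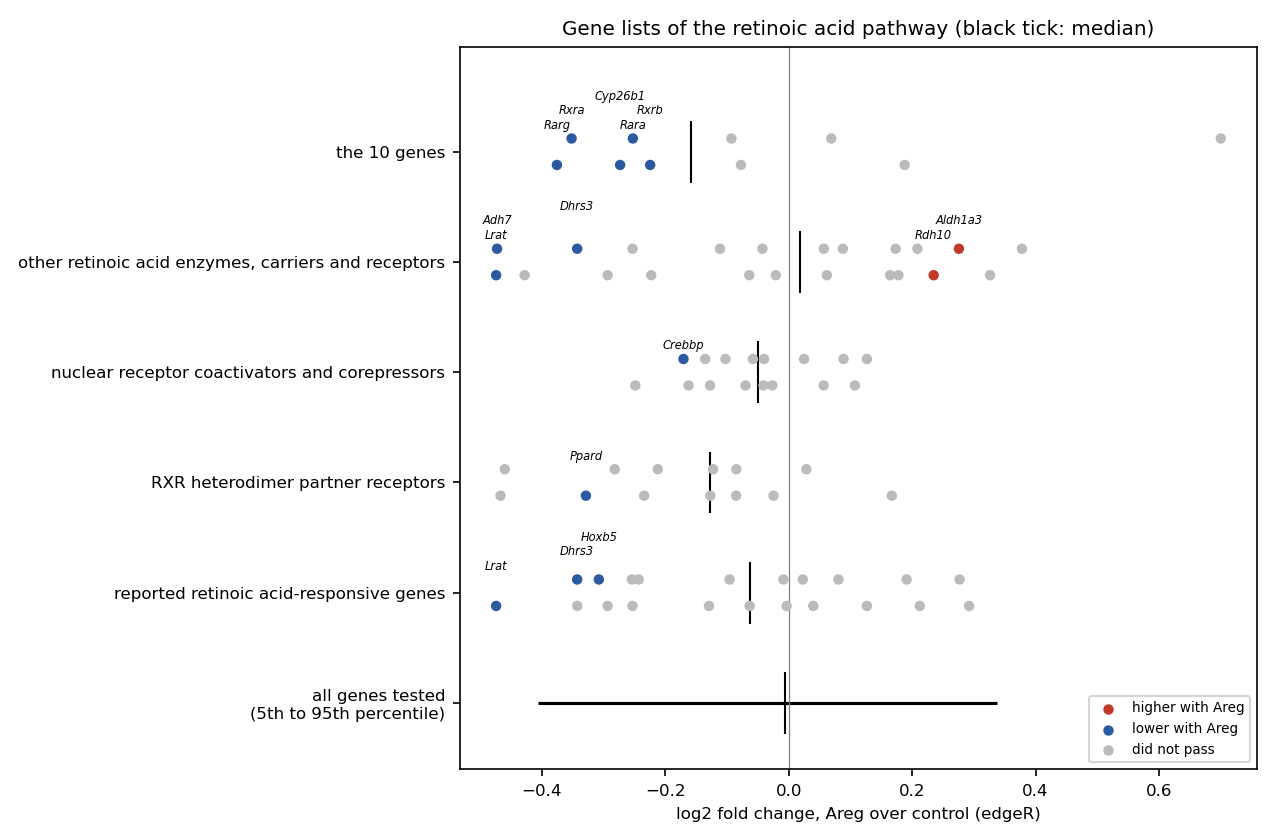
Log2 fold change, Areg over control (horizontal axis, log2 scale), of every tested gene of each list, with a black tick at the list median; coloured points passed an edgeR adjusted p of 0.05 and grey points did not, and the lowest line spans the 5th to 95th percentile of all genes. The 10 genes have a median of -0.16, against 0.02 for other retinoic acid enzymes, carriers and receptors and -0.01 for all genes tested.

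The libraries carried RNA of other liver cells beside stellate markers, so the members' levels are those of the cell mixture. Summed over 14 stellate markers, the level was 9933 TPM with Areg (9785 to 10129) and 10971 TPM in controls (10544 to 11298), a log2 ratio of -0.14 (two-sided exact permutation p = 0.00794, the smallest that 252 arrangements allow; adjusted p = 0.0278 over 7 lists). Most of that difference was Ecm1, an extracellular matrix protein gene, at 3463 to 3679 TPM with Areg and 3913 to 4957 TPM in controls (log2 fold change -0.26). Of the 14 markers 6 (42.9%) were called lower and 8 did not pass. Of all genes tested 8.32% were called lower, and no difference from that share was tested. The most abundant marker, Dcn (decorin), had 5152 to 5391 TPM with Areg and 5278 to 5502 TPM in controls (-0.00024, edgeR adjusted p = 0.998). In these bulk samples fewer stellate cells, less RNA per cell and changes of single marker genes cannot be told apart. The sum of 10 sinusoidal endothelial markers was 3482 TPM with Areg (3444 to 3531) and 3589 TPM in controls (3448 to 3859), with the vascular cadherin gene Cdh5 at 1136 to 1212 TPM with Areg and 1161 to 1397 TPM in controls. The sum of 10 hepatocyte markers was 2162 TPM with Areg (1923 to 2312) and 2133 TPM in controls (1774 to 2699). Neither sum passed (exact permutation adjusted p = 0.194 and 0.881), and the part of these cells in the members' values was not tested.

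The sums of 10 macrophage markers, 10 portal fibroblast and smooth muscle markers and 8 lymphocyte markers did not pass either. They were 612, 221 and 13.5 TPM with Areg and 635, 203 and 13.9 TPM in controls (exact permutation adjusted p = 0.333, 0.0926 and 0.881). The sum of 10 mesothelial and biliary markers was 214 TPM with Areg (177 to 252) and 151 TPM in controls (133 to 156), a log2 ratio of 0.51 (exact permutation p = 0.00794, adjusted p = 0.0278). Nearly all of it was Krt8 and Krt18, keratins that hepatocytes also express, while the other 8 markers were at 0 to 3.57 TPM in every library. No marker of any list was at 0 in all libraries. Without controls 3 and 4 the stellate and mesothelial log2 ratios were -0.11 and 0.53 (exact permutation adjusted p = 0.0938 for both). Fewer than 252 arrangements exist then, which raises the smallest possible p, so the missing call does not show a weaker difference. For both sums the remaining libraries of the groups still did not overlap.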

How the data were processed

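RNA was enriched for poly-A transcripts and made into TruSeq libraries, per the labels' protocols. Per the file headers, each deposited table lists estimated counts (expected counts), TPM, length and effective length for every transcript. The tools in the submitters' processing notes are bcl2fastq 2.19, kallisto 0.44.0 and DESeq2, with build GRCm38.p6. No transcript set or strand setting is given in the sources used here, so reads of overlapping or similar genes may be shared. GENCODE M21 matched 116816 of 118489 transcripts, and the 1673 others (0.736% to 0.778% of counts) were left out. Estimated counts were summed per gene and rounded.

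The Areg and control groups, taken from the labels, were compared with edgeR 4.0.16 under R 4.3.3 (quasi-likelihood test) with TMM factors and filterByExpr (minimum count 10, minimum total 15), with Benjamini-Hochberg adjustment over all 13362 genes and a threshold of 0.05. Transcripts were tested likewise over 36269 transcripts. The biological coefficient of variation was 9.37% for genes and 46.1% for transcripts. CPM is TMM-scaled. Marker sums were tested by exact permutation. Libraries of a group differed beyond sampling error (chi-square over its degrees of freedom 3.77 to 50.7). The test was checked on simulated data. Alternatives used DESeq2 1.42.0, limma 3.58.1 (voom, and trend on log2(TPM + 1) and log2(TPM + 0.1)), other factors and filters, a length offset, a replicate block, a length and GC trend (loess), and libraries left out.

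The members, gene lists and marker lists were chosen with earlier results of these data known. Besides the members and their tested transcripts, up to 4 genes of each list with the smallest p are named, and the values of 2 genes that this picks are not reported here. Aldh1a3 was added after its values were seen. Leaving out transcripts under 500 bases, and removing the trend with controls 3 and 4 left out, were added after the data had been seen.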

Additional observations from a re-analysis of the deposited data

Results flagged for a closer look

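In 60 groups of 5 libraries, 3 held a library far from the others, where chance gives about 1 in 20 by Dixon's criterion. Aldh1a1 was lowest in Areg 5, at 85.6 CPM against 99.1 to 103 CPM in the other Areg libraries. The sum of sinusoidal endothelial markers was highest in control 1 among controls, at 3859 TPM. The sum of mesothelial and biliary markers was lowest in control 1 among controls, at 133 TPM.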

How the results depend on the processing

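Lrat, Dhrs3 and Ppard kept their direction and call under all 25 alternatives, Cyp26b1 under 23, Rarg under 21, Rxra under 20, and Rara and Rxrb under 10 each. Over all single genes, transcripts and marker sums, 853 alternative values kept direction and call, 100 lost the call, 13 gained it and 35 turned sign. The causes were not tested. The number of genes called, 2226 in the reported test, was 1161 with an effective length offset, 840 on log2(TPM + 1), 845 on log2(TPM + 0.1), 1356 and 1073 with the offset and log2(TPM + 1) without transcripts under 500 bases, and 1364 to 2314 with a library left out. The number of members called, 5 in the reported test, was 1 with the offset and on each TPM scale, 2 and 3 with the offset and log2(TPM + 1) without transcripts under 500 bases, 3 without controls 3 and 4, 1 with the length and GC trend also removed, and 3 to 6 with a library left out. Of transcripts, 281 were called, 168 without controls 3 and 4 and 39 to 180 with a library left out. Member transcripts called were 1 in each of those, and 2 with a minimum of 1 CPM in 5 libraries. Same-numbered libraries did not deviate together (r = 0.05, 0.09, -0.05, 0.14 and 0.00), so the replicate numbers were not taken as pairs. With the replicate block 2357 genes were called, the count of members was again 5, 21 transcripts and 0 member transcripts were called, and Rara-207 had -0.028.

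The sign turned in some fits. Rarb had -0.11 with the offset, -0.12 on log2(TPM + 1), -0.15 on log2(TPM + 0.1), and -0.078 and -0.10 without transcripts under 500 bases. With the trend removed and controls 3 and 4 left out, Rxrb had 0.0013, Cyp26a1 0.019, Crabp2 -0.12, Crebbp 0.0062 and Nr1h2 0.0096. Without controls 3 and 4, Crabp2 had -0.048, Crabp2-201 -0.059, Aldh1a1-201 -0.0056 and Cyp26a1-201 0.0024. Rara-207 had -0.00252 with DESeq2's size factors, -0.00288 with the 1 CPM filter and -0.000307 with limma-voom. With a library left out, Cyp26a1 ran from -0.17 to 0.0073 and Rara-207 from -0.14 to 0.36. The marker log2 ratios then ran from -0.16 to -0.13 for stellate (call lost without any of controls 1 to 4), 0.44 to 0.57 for mesothelial and biliary (likewise), -0.040 to 0.12 for hepatocyte, -0.058 to -0.016 for endothelial (passing in at least 1 case), 0.095 to 0.14 for portal and smooth muscle (likewise) and -0.12 to 0.10 for lymphocyte markers. Without controls 3 and 4 the stellate and mesothelial ratios were -0.11 and 0.53, with no call, where fewer arrangements raise the smallest possible p. For both sums the groups did not overlap in any of these subsets, so the lost calls do not show overlap. As sums of log2(TPM + 1) the differences were -2.57 for stellate and 0.49 for mesothelial and biliary, neither called (exact permutation adjusted p = 0.0556 and 0.968), -0.74 for portal and smooth muscle and 0.020 for lymphocyte markers.

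Depth limits Crabp2 and Aldh1a2, with 5 to 53 counts per library, and also Cyp26a1, with 45 to 90. Counts per transcript are estimates, so shares between overlapping forms are uncertain.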
